A study of Sus scrofa with 24 samples.

Results

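8 miRNA entries described in the choice of mesenchymal cells between fat, bone and cartilage were followed in pig adipocytes: ssc-miR-138, ssc-miR-140-3p, ssc-miR-140-5p, ssc-miR-204, ssc-miR-218, ssc-miR-218-5p, ssc-miR-218b and ssc-miR-218-3p. They are every entry of these names among the 1587 entries of the deposited table. They were chosen by name, without a threshold on any value, although their TPM values in the 8 groups were known when the list was drawn up. ssc-miR-211, the close relative of miR-204, was not analysed here. 6 of the 8 reached a mean of 1 TPM over the libraries and were tested, while miR-204 and miR-218-3p did not.

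Small RNA was sequenced from primary cultures of Yorkshire piglets aged 6 days, of no stated genotype. Cells named BF came from subcutaneous fat of the back and cells named IMF from the longissimus dorsi muscle. Cells of both sources were collected before induction on day 0, and on days 2, 4 and 8 of one scheme. It began with 3-isobutyl-1-methylxanthine, dexamethasone and insulin up to day 2, went on with insulin alone up to day 4 and ended with growth medium. Each of the 8 groups of source and day held 3 libraries, 24 in all. The cells were the outgrowth of digested tissue without a stated sort, and the sources used here do not link libraries to single piglets. All p-values therefore measure the spread between libraries, which may be technical. In such bulk samples, fewer cells of a type and less RNA per cell cannot be told apart.

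A miRNA guides a silencing complex to mRNAs that pair with its seed, the bases near its 5′ end, and lowers their translation or stability. Mesenchymal precursor cells can become fat, bone or cartilage cells, and several miRNAs are known to act on regulators of that choice. miR-138 is known to restrain bone formation by precursor cells through focal adhesion kinase. miR-140 is the best known cartilage miRNA, and its loss in mice disturbs the skeleton. miR-204 lowers RUNX2, the master factor of bone cells, and thereby favours fat. miR-218 favours bone by lowering inhibitors of Wnt signalling.

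The mature sequences, from the study's list of miRNAs, are shown because they fix which members act through the same targets and which entries could share reads. Capitals mark the seed, bases 2 to 8.
ssc-miR-138: aGCTGGTGttgtgaatcaggc
ssc-miR-140-3p: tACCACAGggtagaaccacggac
ssc-miR-140-5p: aGTGGTTTtaccctatggtag
ssc-miR-204: tTCCCTTTgtcatcctatgcct
ssc-miR-218 and ssc-miR-218-5p: tTGTGCTTgatctaaccatgt
ssc-miR-218b: tTGTGCTTgatctaaccatgtg
ssc-miR-218-3p: aTGGTTCTgtcaagcaccatg

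The seeds of miR-138, miR-204, miR-218 and the 2 arms of miR-140 all differ. Of the 958 entries with a listed sequence, none outside the members has a member's seed. miR-218 and miR-218-5p are the same 21 bases, and miR-218b has those 21 bases and 1 more. Their values followed: miR-218 and miR-218-5p were equal in all 24 libraries, and miR-218b was equal to them in 16 libraries and 1 to 3 reads higher in 8, with 27071 reads against 27060 in all. The 3 entries are therefore the same reads counted again, and they are described below as miR-218.

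Exact copies of the mature sequences were found in Sscrofa11.1, the build of the study. miR-140-3p lies at chr6:17077533-17077555 and miR-140-5p at chr6:17077573-17077593, both on the minus strand in an intron of WWP2, a ubiquitin ligase gene. miR-204 lies at chr1:224065550-224065571 on the minus strand in an intron of TRPM3, a gene of a cation channel. The 21 bases of miR-218 occur at chr8:15047612-15047632 in an intron of SLIT2 and at chr16:55115936-55115956 in an intron of SLIT3, both on the plus strand, and the added base of miR-218b is present at both. SLIT2 and SLIT3 encode secreted guidance proteins, and which of these 2 sites gave the reads cannot be told apart. miR-138 also has 2 copies, at chr13:27450140-27450160 in MIR138 and at chr6:18840232-18840252, where no gene is annotated. The opposite arm, miR-218-3p, has the single copy chr8:15047655-15047675 in the SLIT2 intron.

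The values are in TPM, here reads per 1000000 reads counted on miRNAs, so 1 read was worth 0.0593 to 0.202 TPM at library totals of 4954845 to 16863560 reads. The table held 363 known entries. miR-140-3p was the most abundant member, with a mean of 809 TPM (rank 43 of 363). The mean of miR-218 was 111 TPM (rank 99), that of miR-140-5p 68.5 TPM (rank 111) and that of miR-138 4.74 TPM (rank 222). miR-204 had 57 reads in 14 libraries and miR-218-3p had 2 reads in 2 libraries. A level of 0 or of few reads was read against 3 reads, which are 0.178 to 0.605 TPM. Floors and intervals cover counting error only, since copies of one molecule made by PCR were not removed.

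**Figure D1:**
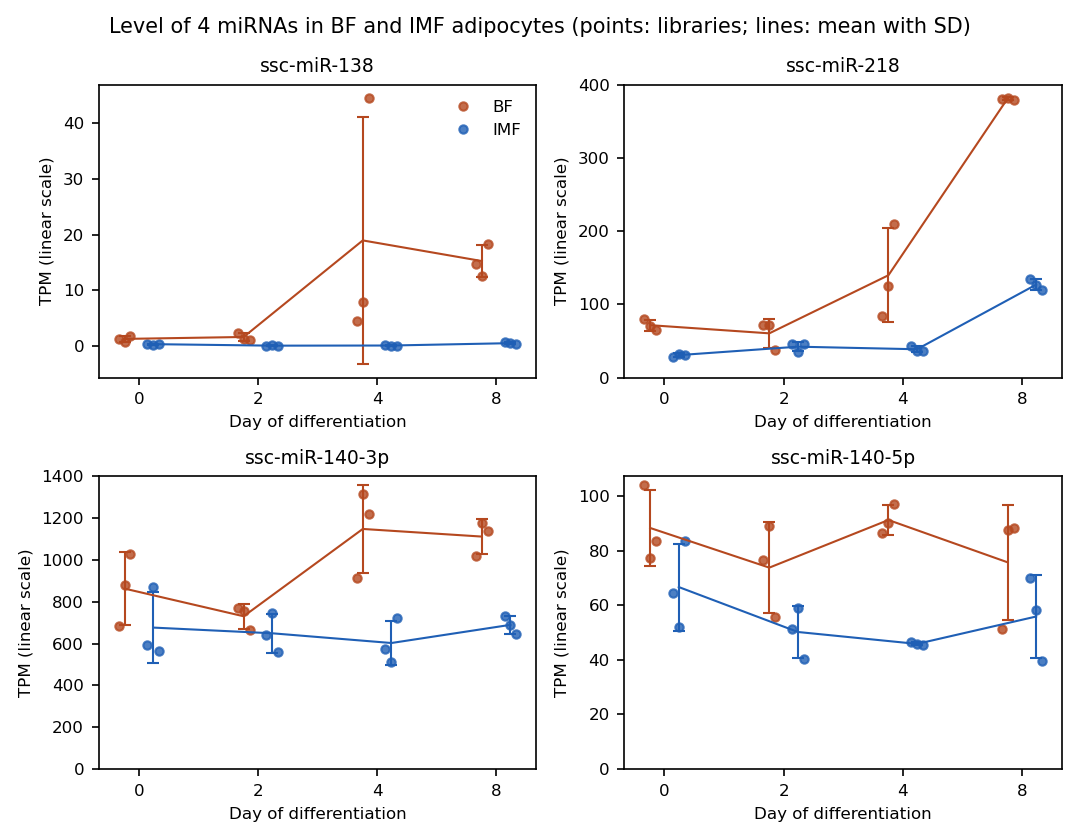
TPM on a linear scale against the day of differentiation for miR-138, miR-218, miR-140-3p and miR-140-5p, with a point for each library, lines through the group means and bars of 1 SD (n = 3), BF in orange and IMF in blue. The plot shows miR-218 near 381 TPM in BF and 127 TPM in IMF on day 8, and BF-4d replicate 3 at 44.6 TPM of miR-138, above every other library.

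Each comparison was fitted with limma on log2(TPM + 1) over the 430 entries that averaged 1 TPM or more. A call is a Benjamini-Hochberg adjusted p under 0.05 over all 430 with a fold change above 1.5. The members were listed with values of these data known, so their fits describe size against replicate spread and are not independent evidence. miR-138 passed the filter through BF alone, since its IMF groups averaged 0.0335 to 0.484 TPM. Its tests of BF against IMF, those of the time course included, therefore only describe that difference.

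Of the tested miRNAs, miR-138 separated BF from IMF most on days 2, 4 and 8 on the log2 scale. On day 0, miR-218 differed more, by −1.19 against −0.76 for miR-138 (limma, IMF minus BF). The read ratio of the untested miR-204 on day 0, 13.6 in the other direction, was also larger than the 4.18 of miR-138. miR-138 was lower in IMF on all 4 days, and the libraries of the sources overlapped on none. In BF it increased late in the course, whereas in IMF it stayed at or below 8 reads per library.

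The BF-0d libraries held 1.18, 0.729 and 1.84 TPM of miR-138, which are 13, 11 and 31 reads. The BF-2d libraries held 2.35, 1.30 and 1.14 TPM. The ranges of these days overlapped. On day 4 the BF libraries held 4.45, 7.83 and 44.6 TPM, the last of them 497 reads in replicate 3. On day 8 they held 14.8, 12.6 and 18.4 TPM. All BF libraries of days 4 and 8 were above all BF libraries of days 0 and 2, and replicate 3 of BF-4d stood apart from the others of its group.

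In IMF, the reads of miR-138 were 3, 2 and 4 on day 0. There were 0, 1 and 0 reads on day 2 and 2, 0 and 0 reads on day 4. On day 8 the count was 8, 8 and 4 reads, or 0.610, 0.535 and 0.307 TPM. The IMF libraries of days 2 and 4 were thus under 3 reads, and those of day 8 were above them without overlap.

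From day 0 to day 8, miR-138 rose in BF, from 1.25 ± 0.56 to 15.2 ± 2.92 TPM (SD, n = 3), a limma log2 fold change of 2.87 ± 0.25 (SE, adjusted p = 8.12e-08). 4 of the 6 tested entries were called higher in this comparison, miR-138 and the 3 entries of miR-218, against 42.8% of the 430 called in either direction and 27.9% called higher. In IMF the same days gave 0.305 ± 0.10 and 0.484 ± 0.158 TPM of miR-138, with a log2 fold change of 0.18 (adjusted p = 0.237). The change differed between the sources by −2.69 ± 0.60 on the log2 scale (IMF minus BF, SE, adjusted p = 0.00224), a contrast added after the values were seen. It kept its call in all 24 fits that left out a library, and 20.7% of the 430 entries had an adjusted p under 0.05 in it.

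Between adjacent days in BF, miR-138 rose from day 2 to day 4, with a log2 fold change of 2.35 ± 0.61 (SE) and an adjusted p of 0.0475. It was the single call among the 6 entries, against 6.05% of all entries. It was kept in 1 of 6 fits that left out a library, the one without BF-4d replicate 1. Without BF-4d replicate 3 the log2 fold change was 1.45 (adjusted p = 0.0644). Without BF-4d replicate 2 it was 2.63 (adjusted p = 0.108), and without BF-2d replicates 1, 2 and 3 in turn it was 2.55, 2.28 and 2.23, with adjusted p of 0.0524, 0.119 and 0.153. The call was also lost under median-of-ratios scaling (adjusted p = 0.0732), in edgeR on whole reads (0.0530) and in limma without a filter (0.471). From day 4 to day 8 the log2 fold change was 0.31 (adjusted p = 0.822), with overlapping libraries and no stable direction. It was 1.21 (adjusted p = 0.0626) without BF-4d replicate 3, −0.32 without BF-4d replicate 1 and −0.32 in edgeR on whole reads, and the mean TPM went from 19.0 to 15.2.

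The increase of IMF miR-138 from day 4 to day 8, from 2 to 20 reads over the group, is a ratio of 9.09 with an exact 95% interval of 2.21 to 80.2. On the log2(TPM + 1) scale, which shrinks low values, it was 0.49 (limma, adjusted p = 0.0308) and missed the fold criterion. The entry was called with a pseudocount of 0.1 TPM (2.02, adjusted p = 0.0260) and where no fold criterion was set. The adjusted p stayed under 0.05 after scaling (0.0346), with the replicate block (0.0345) and with 1 entry per mature sequence (0.0317), below the fold criterion each time. It was 0.0658 in edgeR on whole reads (2.74), 0.181 without a filter and 0.493 in 1 fit of all libraries, and DESeq2 gave none. In 4 of the 6 fits that left out a library it was above 0.05, from 0.0706 to 0.107.

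BF held more reads of miR-138 than IMF on each day. Over the 3 libraries of a group, BF held 55 reads and IMF 9 on day 0, a ratio per read total of 4.18 (95% interval 2.05 to 9.63). It was 45.1 (7.70 to 1820) on day 2, from 46 and 1 reads, and 391 (108 to 3232) on day 4, from 609 and 2 reads. Of these 609 reads, 497 were of BF-4d replicate 3, and without it the ratio was 116 (31.5 to 972), from 112 and 2 reads, a comparison chosen after the values were seen. On day 8 it was 30.7 (19.6 to 50.9), from 359 and 20 reads. The IMF counts of days 2 and 4 lie under 3 reads, so the intervals of these ratios are wide. Over the whole course BF had 1069 reads and IMF 32.

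limma gave log2 fold changes of IMF minus BF of −0.76 on day 0 (adjusted p = 0.0286), −1.30 on day 2 (0.0132), −3.62 on day 4 (4.96e-04) and −3.44 on day 8 (7.79e-08). The entry was called on each day, after passing the filter of 1 TPM through BF alone. On day 0, 4 of the 6 entries were called, miR-138 and the 3 entries of miR-218. All were lower in IMF, against 29.3% of the 430 called and 15.8% called lower. On day 2 it was the single call, against 12.3% called and 6.51% called lower. On day 4 all 6 tested entries were called lower, against 36.3% called and 28.8% called lower, and on day 8 5 of 6, against 37.2% and 25.1%. The median difference over all 430 entries was itself −0.34 and −0.28 on these days, and under median-of-ratios scaling, in edgeR and in DESeq2 the calls were 4 of 6 on both, without miR-140. Libraries of the sources did not overlap for 47.7%, 33.3%, 50.2% and 51.2% of all entries on the 4 days.

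The calls of miR-138 on days 0 and 2 depended on single libraries. On day 0 the call was kept only without BF-0d replicate 2. Without BF-0d replicates 1 and 3 the log2 difference was −0.77 and −0.57, and without IMF-0d replicates 1, 2 and 3 it was −0.75, −0.71 and −0.82, with adjusted p from 0.0367 to 0.0840 in these 5 fits. On day 2 it was lost without any IMF library (adjusted p = 0.0546, 0.0573 and 0.0645) and with the replicate number as a block (adjusted p = 0.0544). On days 0, 2 and 4 it was lost in limma without a filter (adjusted p = 0.154, 0.0964 and 0.0960). The day 0 call was also lost in DESeq2 on whole reads (adjusted p = 0.0527) and in 1 fit of all libraries (adjusted p = 0.185). The calls of days 4 and 8 held in every fit that left out a library, and on day 4 the log2 difference was −2.72 without BF-4d replicate 3.

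**Figure D2:**
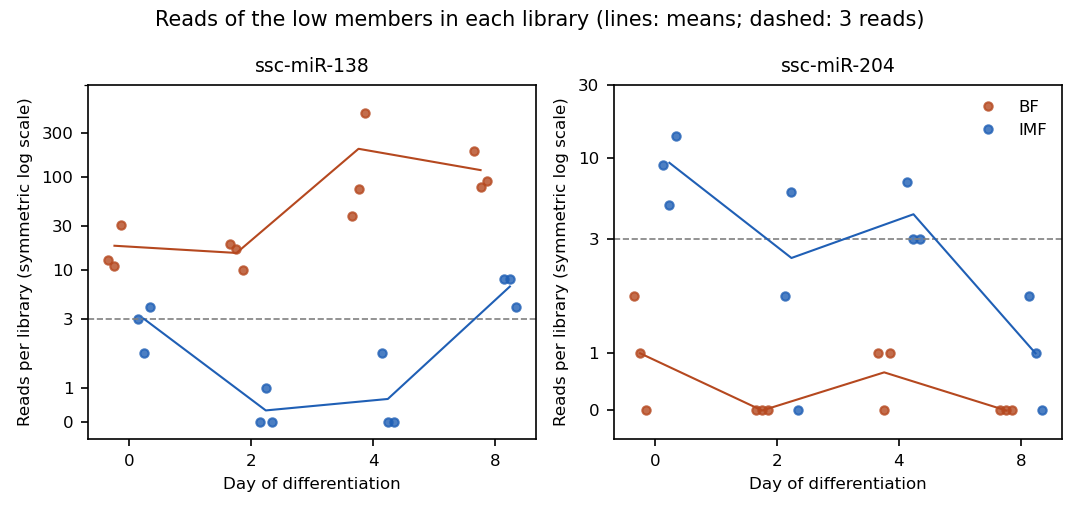
Reads per library on a symmetric log scale against the day of differentiation for miR-138 and miR-204, with a point for each library, lines through the group means and a dashed line at 3 reads (reads are not adjusted for library totals). miR-138 lies at 10 to 497 reads in BF and 0 to 8 in IMF, whereas miR-204 lies at 0 to 2 reads in BF and 0 to 14 in IMF.

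miR-204, the member known to favour fat over bone, was read in the opposite order. It had 9, 5 and 14 reads in the IMF-0d libraries and 2, 1 and 0 reads in the BF-0d libraries, so the sources did not overlap on day 0. On day 2 the IMF libraries had 2, 6 and 0 reads and the BF libraries none. The counts on day 4 were 7, 3 and 3 reads in IMF against 1, 0 and 1 in BF. Day 8 left 2, 1 and 0 reads in IMF and none in BF, at or under the floor in both.

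Over all days, IMF held 52 reads of miR-204 and BF 5, a ratio per read total of 9.55 (95% interval 3.84 to 30.6). The ratio was 13.6 (4.21 to 70.1) on day 0 and 5.07 (1.15 to 46.3) on day 4, where BF had 3 and 2 reads. No fold is given for day 2, when IMF had 8 reads and BF 0, and 1 IMF library had none either. In IMF, 28 reads on day 0 against 3 on day 8 gave a ratio of 13.0 (4.02 to 67.0).

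The entry was too low for the filter. In limma without a filter, 0 of its 12 comparisons were called, and 2 had an unadjusted p under 0.05, IMF against BF on day 0 (log2 difference 0.82, adjusted p = 0.116) and day 0 to day 8 in IMF (−0.84, adjusted p = 0.0855). At these depths levels under 0.605 TPM could not be resolved in the shallowest library.

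miR-218, the bone-favouring member, increased late in both sources and was higher in BF than in IMF on days 0, 4 and 8.

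The BF libraries held 79.7, 70.1 and 64.8 TPM of miR-218 on day 0. They held 72.3, 71.3 and 37.7 TPM on day 2, within or below the range of day 0. On day 4 they spread from 84.4 over 125 to 210 TPM in replicates 1, 2 and 3, all above the earlier days. On day 8 they held 381, 382 and 379 TPM, far above every earlier library.

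The IMF libraries started at 28.0, 32.7 and 31.4 TPM of miR-218. They held 45.7, 34.8 and 46.1 TPM on day 2 and 43.7, 36.7 and 35.7 TPM on day 4, overlapping each other. On day 8 they held 134.8, 126.5 and 119.6 TPM. The day 8 libraries of IMF thus exceeded all earlier IMF libraries and lay within the range of BF-4d.

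In IMF, miR-218 rose from day 4 to day 8, from 38.7 ± 4.36 to 127 ± 7.62 TPM (SD, n = 3), a log2 fold change of 1.69 ± 0.14 (limma, SE, adjusted p = 2.66e-04). The 3 entries of miR-218 were the calls among the 6 tested, against 13% of all entries, and each leave-one-out fit kept the call. Before that step limma called 0 of the 6 entries in IMF, against 0% of the 430 both from day 0 to day 2 and from day 2 to day 4. Of the 6, 4 and 0 had an unadjusted p under 0.05 in these 2 steps, against 68 and 65 of the 430. The 4 were miR-138 and the 3 entries of miR-218. edgeR and DESeq2 on whole reads called 0 of the 6.

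In BF, miR-218 went from 140 ± 64.0 TPM on day 4 to 381 ± 1.53 TPM on day 8, a rise of 1.54 ± 0.30 on the log2 scale (SE, limma adjusted p = 0.0183). Its 3 entries were called, against 3.02% of the 430. The call was lost without BF-4d replicate 2, BF-8d replicate 2 or BF-8d replicate 3, at log2 fold changes of 1.51, 1.54 and 1.54 and adjusted p of 0.0724, 0.0818 and 0.0677, and without a filter (adjusted p = 0.253). From day 2 to day 4 the log2 fold change was 1.16 (adjusted p = 0.0768), which was no call, although the libraries did not overlap. The step was called in DESeq2 on whole reads (1.07, adjusted p = 0.0214), in 1 limma fit of all libraries (adjusted p = 0.00126) and without BF-4d replicate 1 (1.47, adjusted p = 0.0112). From day 0 to day 2 limma called 0 of the 6 entries in BF, against 4.19% of all entries. Of the 6, 0 had an unadjusted p under 0.05, against 104 of the 430, and edgeR and DESeq2 called 0 of the 6.

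Over the whole course the rise was 5.32-fold in BF (log2 fold change 2.40 ± 0.18, SE, adjusted p = 1.19e-08) and 4.14-fold in IMF (2.02 ± 0.12, adjusted p = 6.63e-05), both by limma. In IMF the 3 entries of miR-218 were the calls of this comparison, against 30.5% of all entries. The difference of this rise between the sources, −0.39 ± 0.35 on the log2 scale (IMF minus BF, SE), did not pass the threshold (limma, adjusted p = 0.438). From day 2 to day 4 the change was lower in IMF by −1.27 ± 0.35 (adjusted p = 0.0228), where 7.67% of the 430 entries had an adjusted p under 0.05. This contrast was also chosen after the values were seen. It missed the threshold under median-of-ratios scaling (−0.97, adjusted p = 0.0817). It was also lost in 6 of the 24 fits that left out a library, those without BF-2d replicate 3, BF-4d replicate 3, IMF-2d replicate 1 or 3, or IMF-4d replicate 2 or 3, at −0.97, −0.93, −1.21, −1.21, −1.24 and −1.22.

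IMF was lower in miR-218 than BF by −1.19 ± 0.12 on the log2 scale on day 0 (limma, SE, adjusted p = 0.00202). The difference was −1.73 ± 0.31 on day 4 (adjusted p = 0.00108) and −1.58 ± 0.15 on day 8 (adjusted p = 1.58e-06), when the mean level was 3.0-fold higher in BF. Each leave-one-out fit kept these calls, and day 4 was lost without a filter (adjusted p = 0.0684). On day 2 the difference was −0.46 (adjusted p = 0.332) with overlapping libraries. Without BF-2d replicate 3, the BF library of 37.7 TPM, it was −0.76 (adjusted p = 0.0272) and called.

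Ordered by mean, miR-218 was highest in BF-8d, followed by BF-4d, IMF-8d, BF-0d, BF-2d, IMF-2d, IMF-4d and IMF-0d. BF-8d stood clear of BF-4d, IMF-8d of BF-0d, and IMF-4d of IMF-0d, while the other neighbours in that order overlapped. The order of miR-138 was BF-4d, BF-8d, BF-2d, BF-0d, IMF-8d, IMF-0d, IMF-4d and IMF-2d. There BF-8d did not overlap with BF-2d, nor BF-0d with IMF-8d, nor IMF-0d with IMF-4d. For both arms of miR-140, every pair of neighbours in the order overlapped.

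**Figure D3:**
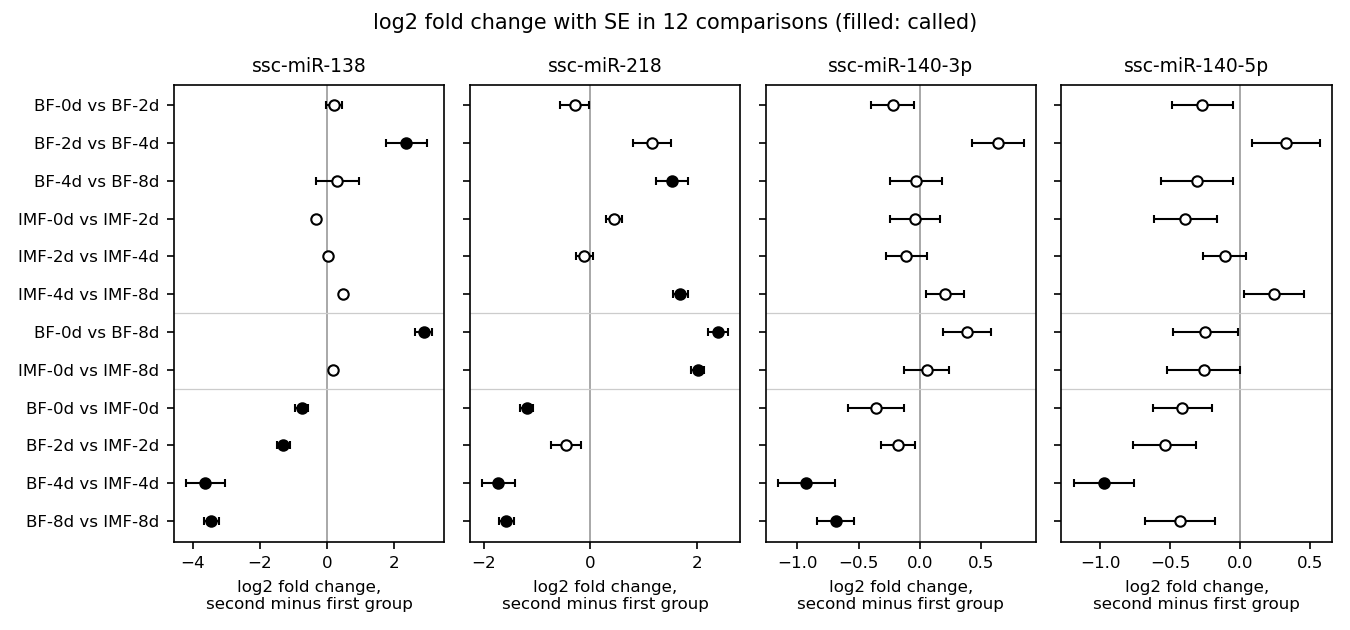
log2 fold changes on the log2(TPM + 1) scale with their SE (bars) for miR-138, miR-218, miR-140-3p and miR-140-5p in 8 comparisons of days and 4 of sources, where filled points are calls in limma and the horizontal scale differs between panels. IMF minus BF lies below 0 for all 4 miRNAs on all 4 days, down to −3.62 for miR-138 on day 4, although edgeR on whole reads put miR-140-3p at 0.0128 on day 2.

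miR-140, the cartilage member, moved little. Neither arm was called between any days in either source, and both were lower in IMF on day 4.

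For miR-140-3p, the BF means were 863 ± 173, 731 ± 58.7, 1148 ± 210 and 1112 ± 83.8 TPM on days 0, 2, 4 and 8 (SD, n = 3). The IMF means were 677 ± 170, 649 ± 92.6, 603 ± 107 and 690 ± 44.1 TPM. The libraries of the sources overlapped on days 0 and 2 and not on days 4 and 8. limma called the log2 difference of IMF minus BF on day 4 (−0.93 ± 0.23, SE, adjusted p = 0.00759) and on day 8 (−0.69 ± 0.15, adjusted p = 0.00239). Over time, the largest log2 fold change was 0.64 from BF-2d to BF-4d (adjusted p = 0.0842), which was called without BF-4d replicate 1 (0.79, adjusted p = 0.0230) and in 1 fit of all libraries (adjusted p = 0.0171).

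miR-140-5p averaged 88.3 ± 14.0, 73.8 ± 16.8, 91.3 ± 5.41 and 75.8 ± 21.2 TPM in BF on the 4 days. In IMF it averaged 66.7 ± 15.9, 50.2 ± 9.51, 45.9 ± 0.555 and 55.9 ± 15.3 TPM. The only day without overlap was day 4, when BF held 86.4, 90.2 and 97.1 TPM in order of size and IMF 45.3, 45.8 and 46.4 TPM. The log2 difference of that day was −0.98 ± 0.21 (limma, SE, adjusted p = 0.00343). Without BF-2d replicate 3 the difference of day 2 was also called (−0.72, adjusted p = 0.0470), as was that of day 8 without BF-8d replicate 1 (−0.68, adjusted p = 0.00991).

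The differences of miR-140 were smaller after scaling. The median log2 difference of IMF minus BF over all 430 entries was −0.13, −0.14, −0.34 and −0.28 on the 4 days. Median-of-ratios scaling, which centres the libraries on their typical entry, brought it to −0.07 or nearer to 0. After scaling, miR-140-3p differed by −0.49 on day 4 (adjusted p = 0.1004) and −0.41 on day 8 (adjusted p = 0.0213, under the fold criterion), and miR-140-5p by −0.55 on day 4 (adjusted p = 0.0573), none of them a call. On whole reads these calls were lost as well, at −0.48, −0.34 and −0.53 in edgeR (adjusted p = 0.0918, 0.0550 and 0.0613) and −0.51, −0.40 and −0.56 in DESeq2 (adjusted p = 0.0855, 0.0280 and 0.0419, the last 2 under the fold criterion). Without a filter, the day 4 call of miR-140-3p was lost too (adjusted p = 0.0793). miR-138 and miR-218 stayed called after scaling on day 4 (−3.45 and −1.31) and on day 8 (−3.22 and −1.31). TPM values are shares of a total in which ssc-miR-21-5p took 27.9% to 60.5% of the reads.

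A ratio of members within a library does not depend on scaling. miR-140-3p exceeded miR-140-5p in every library, by 6.55-fold to 19.8-fold. The mean ratio was 10.1 ± 3.09 on day 0 and 15.4 ± 3.85 on day 8 in BF, without overlap, and the exact two-sided permutation p was 0.1, the smallest that 3 against 3 libraries allow. In IMF it was 10.9 ± 5.21 and 12.9 ± 3.06 (exact permutation p = 0.5). Between the sources it did not overlap on day 2, at 10.2 ± 1.69 in BF and 13.0 ± 0.817 in IMF (exact permutation p = 0.1), and overlapped on days 0, 4 and 8 (exact permutation p = 0.9, 0.8 and 0.4).

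The ratio of miR-218 to miR-140-3p increased over the course in both sources. In BF it was 0.0866 ± 0.0275 on day 0, 0.120 ± 0.0452 on day 4 and 0.344 ± 0.0267 on day 8 (SD, n = 3). In IMF it was 0.0467 ± 0.00901, 0.0657 ± 0.0142 and 0.184 ± 0.00109. Day 8 did not overlap with day 0 or day 4 in either source, and BF did not overlap with IMF on days 0, 4 and 8 (exact permutation p = 0.1 in each). On day 2 the sources overlapped, with means of 0.0815 and 0.0667 (exact permutation p = 0.5). These are 24 comparisons of 2 ratios, and with 3 libraries a group the exact permutation test cannot give a p under 0.1 in any of them.

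**Figure D4:**
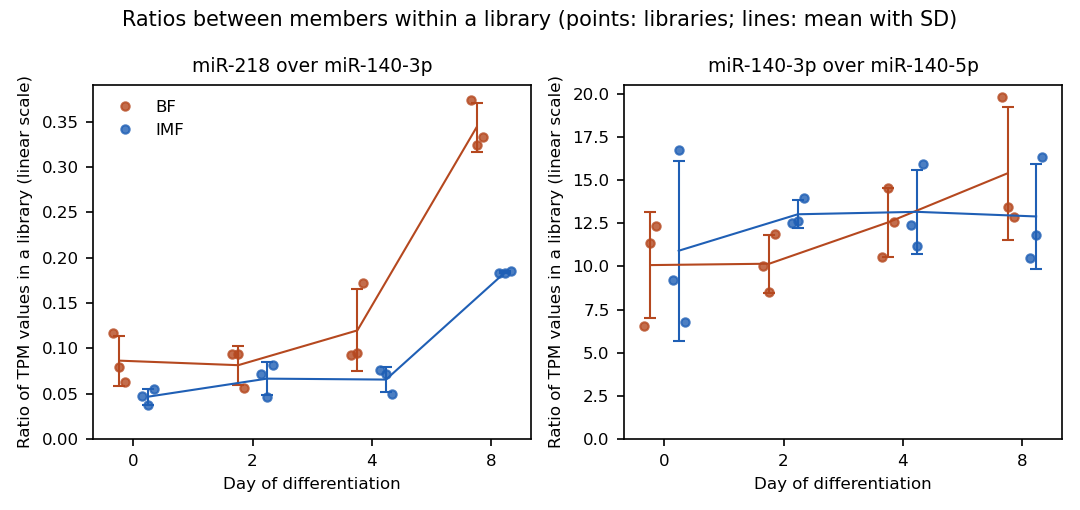
Ratio of TPM values within a library on a linear scale against the day of differentiation, miR-218 over miR-140-3p on the left and miR-140-3p over miR-140-5p on the right, with a point for each library, lines through the means and bars of 1 SD (n = 3). The left ratio reaches 0.344 in BF and 0.184 in IMF on day 8, and the right one stays between 6.55 and 19.8.

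The other arm of the miR-218 precursor was almost unread. miR-218-3p had 2 reads in all, in 1 BF-2d and 1 BF-8d library, against 27060 reads of miR-218. No fold is given, since every group was under 3 reads.

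Whether the time course differed between BF and IMF was tested over all 24 libraries by limma's F test of the source-by-day terms. 4 of the 6 tested entries passed, miR-138 and the 3 entries of miR-218 that count the same reads, against 31.6% of the 430. miR-138 passed (F = 11.9, adjusted p = 5.07e-04), as did miR-218 (F = 5.38, adjusted p = 0.0251). miR-140-3p (F = 2.98, adjusted p = 0.124) and miR-140-5p (F = 1.26, adjusted p = 0.446) did not. For miR-138 the adjusted p was 0.0712 in edgeR on whole reads (F = 3.94), and without BF-4d replicate 3 the limma F was 27.3 (adjusted p = 1.57e-06). miR-218 was lost without BF-2d replicate 3, IMF-2d replicate 1 or IMF-2d replicate 3 (adjusted p = 0.0744, 0.0596 and 0.0621), under median-of-ratios scaling (adjusted p = 0.0624) and without a filter (adjusted p = 0.0695). miR-140-3p passed without BF-4d replicate 1 (adjusted p = 0.0482).

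From day 2 to day 4 the change of miR-138 was lower in IMF than in BF by −2.32 ± 0.60 on the log2 scale (SE, limma adjusted p = 0.0165), which stayed under 0.05 after scaling (−2.18, adjusted p = 0.0449). This contrast, too, was added after the values were seen, and 7.67% of the 430 entries had an adjusted p under 0.05 in it. Without BF-4d replicate 3 it was −1.41 (adjusted p = 0.0179), and without BF-2d replicate 3 it was −2.19 (adjusted p = 0.0569). From day 0 to day 2, and from day 4 to day 8, no member passed the same test, which 2.33% and 12.3% of all entries passed.

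Markers of other cell types differed between the sources too. ssc-miR-126-3p, an endothelial miRNA, was at 58.4, 39.7, 66.9 and 71.1 TPM on average in BF and 29.4, 25.3, 25.4 and 27.8 TPM in IMF on the 4 days, and was called lower in IMF on day 4 (−1.37, limma adjusted p = 0.00207) and day 8 (−1.30, adjusted p = 5.18e-04). The neuron-enriched ssc-miR-9, whose 3 entries hold equal values, averaged 48.6 TPM in BF-4d and 51.9 TPM in BF-8d against 15.7 and 22.7 TPM in IMF, and was called lower in IMF on days 2, 4 and 8. miR-124, the other neuron miRNA that was looked for, has no entry among the known ones. In BF-4d, ssc-miR-9 was at 30.6, 48.4 and 66.8 TPM in replicates 1, 2 and 3, the order of miR-138 and miR-218 in these libraries. Other markers had another order there and were highest in replicate 1. ssc-miR-126-3p was at 83.5, 51.7 and 65.4 TPM and the muscle miRNA ssc-miR-1 at 1500, 1011 and 1099 TPM. The part of such cells in the member differences was not tested.

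The 7 entries of skeletal muscle miRNAs summed to 475 to 2362 TPM per library, with ssc-miR-1 at 450 to 2324 TPM, nearly the whole of the sum. Their mean sum in BF was 930, 511, 1238 and 1773 TPM on days 0, 2, 4 and 8, so it was higher on the days when miR-138 and miR-218 were high. In IMF it was 1311, 949, 842 and 1268 TPM, above BF on days 0 and 2 and below it on days 4 and 8. ssc-miR-206, the muscle-restricted entry, took another course and stayed at 0 to 0.934 TPM. It was at 0 in all BF-2d and BF-4d libraries and averaged 0.210 and 0.0537 TPM in BF-0d and BF-8d, against 0.520, 0.247, 0.319 and 0.179 TPM in IMF on the 4 days. The part of muscle cells in the member differences was not tested. 7 entries of blood cell miRNAs summed to 0.662 to 8.08 TPM, highest in IMF-8d. ssc-miR-486, the only one tested, averaged 6.27 TPM in IMF-8d and 2.43 TPM in BF-8d. It was called lower in IMF on day 4 (−0.94, limma adjusted p = 0.0188) and higher in IMF on day 8 (1.10, adjusted p = 0.00132). ssc-miR-451, the red blood cell miRNA among them, was highest in BF-4d. It was at 0.234, 1.38 and 2.24 TPM in replicates 1, 2 and 3, the order of miR-138, the first under the 0.351 TPM of 3 reads. The part of blood cells was not tested. Fat cell markers are mRNAs, and the identity of the cells was not checked here.

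Group means of log2(TPM + 1) over the 8 groups were used to name the entries most like each member, as a description without a test, since all entries come from the same libraries. Those nearest to miR-218 were ssc-miR-148b-3p, ssc-miR-16 and ssc-miR-6516 (Pearson's r of 0.98 each). Those nearest to miR-140-3p were ssc-miR-17-5p, ssc-miR-296-3p and ssc-miR-191 (r of 0.97 each). Those nearest to miR-140-5p were ssc-let-7d-5p (0.95), ssc-miR-125a (0.93) and ssc-miR-103 (0.92). The 2 arms of miR-140 were not among each other's nearest entries.

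Other miRNAs known in the choice between fat, bone and cartilage were counted for comparison, 30 entries of 13 families. All but ssc-miR-31 were tested, which left 29 entries. From day 0 to day 8, 10 of them rose and 7 fell in BF, with a median log2 fold change of 0.22 against 0.15 over all 430 entries, of which 27.9% were called higher and 14.9% lower. ssc-miR-29b, of a family that lowers collagens, had the largest rise (3.37, limma adjusted p = 4.27e-09), and ssc-miR-145-3p, of a family known from smooth muscle, the largest fall (−1.68, adjusted p = 2.52e-05). In IMF 8 rose and 2 fell (median 0.05 against 0.07), where 19.8% of all entries were called higher and 10.7% lower, led by ssc-miR-199b-3p (1.08, adjusted p = 0.00445) and ssc-miR-135 (−0.85, adjusted p = 0.0340).

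IMF was called lower than BF in 6, 1, 9 and 6 of these 29 entries on days 0, 2, 4 and 8 and higher in 1, 0, 0 and 3. Of all entries, 15.8%, 6.51%, 28.8% and 25.1% were called lower on these days and 13.5%, 5.81%, 7.44% and 12.1% higher. Their medians were −0.42, −0.13, −0.30 and −0.34, against −0.13, −0.14, −0.34 and −0.28 over all entries. ssc-miR-29b had the largest difference on day 4 (−2.24, limma adjusted p = 2.80e-04) and on day 8 (−1.70, adjusted p = 1.97e-06). On day 8, ssc-miR-335 was higher in IMF by 1.06 on the log2 scale (adjusted p = 0.00221).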

How the data were processed

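The authors deposited RPM (their TPM), which are reads per 1000000 reads counted on miRNAs, whole multiples of 1 read (largest deviation 7.44e-04 reads). The authors mapped clean reads with Bowtie to Sscrofa11.1, identified known miRNAs against miRBase, predicted others with miRDeep2 and tested with DESeq2. Each column sums to 1000000. The strand of miR-140 and miR-204 is that of the match to the RefSeq genome, since the list of miRNAs gives plus for all.

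The members and lists were chosen with earlier results of these data known. Named are all members, entries with a member's sequence or seed, the 3 entries nearest to each member of at least 10 TPM, counts and extremes of the other lineage-choice miRNAs, and the most abundant entry. For each comparison the libraries of 2 groups were fitted with limma 3.58.1 (eBayes with trend, R 4.3.3) on log2(TPM + 1), with a fold change on that scale. It was tested on simulated data of BF-0d and BF-2d with 430 entries, where it recovered 56.1% of entries changed 2-fold and 93.8% of those changed 4-fold, with 1.49% and 1.88% false calls. The simulation changed a larger share of the entries than was called in any comparison, and none of the most abundant. Recovery may therefore be lower where few entries change, as between adjacent days. Ratios of reads have exact 95% intervals. The fits were repeated with median-of-ratios scaling, a pseudocount of 0.1, the filter at 10 TPM or absent, the replicate block, merged entries, 1 fit of all libraries, no fold criterion, edgeR 4.0.16 and DESeq2 1.42.0 on whole reads, and leaving out each library. Libraries of a group differed beyond counting error in all 24 pairs. Same-numbered libraries had a correlation of deviations over 0.1 in 11 of 36 pairs, and in all 3 pairs only for BF-0d and IMF-0d. Matplotlib 3.10.9, SciPy 1.17.1, pandas 2.3.3, NumPy 2.4.6 and Python 3.11.15 were also used. The mRNA libraries, target genes and qRT-PCR were not analysed here.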

Additional observations from a re-analysis of the deposited data

Results flagged for a closer look

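The time courses of ssc-miR-138, ssc-miR-218, ssc-miR-218-5p and ssc-miR-218b differed between BF and IMF in the F test of the source-by-day terms in limma. The adjusted p was 5.07e-04 for ssc-miR-138 and 0.0251 for each of ssc-miR-218, ssc-miR-218-5p and ssc-miR-218b, which count the same reads. For ssc-miR-138, the mean went from 1.25 to 15.2 TPM between day 0 and day 8 in BF and from 0.305 to 0.484 TPM in IMF. For ssc-miR-218 it went from 71.6 to 381 TPM in BF and from 30.7 to 127 TPM in IMF. edgeR on whole reads gave an adjusted p of 0.0712 for the same terms of ssc-miR-138, which passed the filter through BF alone. Those of ssc-miR-218 were not called under median-of-ratios scaling (adjusted p = 0.0624), without a filter (0.0695) or without BF-2d replicate 3, IMF-2d replicate 1 or IMF-2d replicate 3 (0.0744, 0.0596 and 0.0621). The cause of either difference was not tested.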

How the results depend on the processing

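No member changed direction while called under any alternative run. The members were called 4 times between adjacent days in BF, 3 in IMF, 7 between day 0 and day 8, 16 between the sources and 4 in the source-by-day terms, with the 3 entries of miR-218 counted separately. Without a filter these became 0 for adjacent days in BF, 9 between the sources and 1 in the source-by-day terms, with all entries fitted in place of 430, and the cause was not tested. Median-of-ratios scaling left 1 in the source-by-day terms, and DESeq2 on whole reads and 1 fit of all libraries gave 7 and 8 for adjacent days in BF. Leaving out a library gave 0 to 8 for adjacent days in BF, lowest without BF-4d replicate 2, 1 without BF-8d replicate 2 or 3, and 8 without BF-4d replicate 1. It gave 3 in IMF and 7 between day 0 and day 8 in every fit, 15 to 20 between the sources, and 1 to 5 in the source-by-day terms, 1 without BF-2d replicate 3, IMF-2d replicate 1 or IMF-2d replicate 3. With the replicate number as a block the counts were 4, 3, 7, 15 and 4, and the lost call was ssc-miR-138 on day 2. In BF-0d and IMF-0d, where all 3 same-numbered pairs had a correlation over 0.1, the block changed no member call.

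The effect of depth falls on miR-138 in IMF and on miR-204, with 0 to 14 reads in a library. With 3 libraries a group, 56.1% of simulated 2-fold changes were recovered, where more of the entries were changed than were called in any comparison.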

Other observations

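The entries whose group means were nearest to those of ssc-miR-138, looked up after its values were seen, were novel_miR_561 (Pearson's r of 0.99 over the 8 groups), ssc-miR-10386 (0.98) and ssc-miR-9 (0.98). ssc-miR-10386 averaged 10.4 TPM in BF-4d and 7.89 TPM in BF-8d, against 0.337 to 0.464 TPM in BF on days 0 and 2 and 0.0845 to 0.168 TPM in IMF. novel_miR_561 averaged 206.4, 207.1, 341 and 347 TPM in BF on the 4 days and 150 to 186 TPM in IMF.

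The predicted entry novel_miR_1055 has a precursor that overlaps the miR-218 precursor on chromosome 8 and had 31 reads in 9 libraries, a mean of 0.117 TPM.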
